A study of Homo sapiens with 24 samples.

Results

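The dual-specificity MAP kinase phosphatases were described in AGS, an established cell line from a human gastric adenocarcinoma, under kinase inhibitors. Members were the rows of the count table with the symbol DUSP1, DUSP2, DUSP4, DUSP5, DUSP6, DUSP7, DUSP8, DUSP9, DUSP10 or DUSP16, and all 10 were among its 23368 genes. RNA sequencing was done on 24 libraries in 6 groups of 4, all from wild-type cells harvested at 24 h. The groups were a control with no inhibitor, PI103 at 0.7 µM (an inhibitor of PI3 kinase and mTOR), PD0325901 at 0.035 µM (a MEK inhibitor), (5Z)-7-oxozeaenol at 0.5 µM (a TAK1 inhibitor, called oxozeaenol here), and 2 mixtures of PI103, one with the TAK1 inhibitor (the oxozeaenol combination) and one with the MEK inhibitor (the PD0325901 combination). Agents in a combination were used at 50% of their single concentrations. Whether the control was given vehicle is not in the labels, and they give the replicate number as the batch. The replicates are labelled as biological replicates of 1 line, so the p-values measure the spread between these libraries.

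These phosphatases switch off MAP kinases by removing phosphate from both the threonine and the tyrosine of the activation loop. DUSP1, DUSP2, DUSP4 and DUSP5 act in the nucleus and are mostly encoded by genes that growth factors and stress induce. DUSP6, DUSP7 and DUSP9 act mainly in the cytoplasm and prefer ERK, while DUSP8, DUSP10 and DUSP16 prefer p38 and JNK. Several are themselves transcribed in response to the kinases they inactivate, which makes them negative feedback regulators, and DUSP4 and DUSP6 are widely read as outputs of the MEK and ERK pathway.

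Libraries held between 38057638 and 84226380 counts in genes, with a median of 58923505. All 6 epithelial markers (EPCAM, KRT8, KRT18, KRT19, CLDN4 and CDH1) had a median above 1 CPM (counts-per-million of the scaled library), and their summed level was 4624 to 7533 CPM. Of 6 gastric and intestinal markers, 3 had a median above 1 CPM (TFF1, CDX2 and CDH17), and GKN1 was at 0 in every library. Their summed level was 190 to 219 CPM in control, 200.5 to 219 CPM with PI103, 351 to 485 CPM with PD0325901, 256 to 293 CPM with oxozeaenol, 295 to 347 CPM with the oxozeaenol combination and 351 to 456 CPM with the PD0325901 combination. Of 15 markers of fibroblasts, immune and endothelial cells, 12 had a median under 1 CPM. The summed immune markers were 38.7 to 49.3 CPM in control and 188 to 468 CPM over the treated libraries, nearly all of it LYZ, while the leukocyte marker PTPRC reached at most 0.101 CPM. The summed fibroblast markers, nearly all COL1A1, were 14.3 to 17.4 CPM in control and 8.18 to 34.4 CPM over the treated libraries. The part of these markers in the results below was not tested.

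In control cells the levels of the members, per length, spanned a wide range. Per kilobase of exon, DUSP4 stood highest at 53.0 ± 6.09 CPM (SD, n = 4). DUSP1 followed at 34.6 ± 9.68 CPM per kilobase, DUSP6 at 28.4 ± 2.90 and DUSP16 at 27.2 ± 2.96 (SD, n = 4 each), and the spreads of these 3 overlapped. The other expressed members were far lower on this scale, from DUSP8 at 6.46 ± 1.28 to DUSP10 at 2.07 ± 0.308 CPM per kilobase (SD, n = 4 each). DUSP5 was hardly detected, with 2 counts over all libraries and 0 in 22 of 24. DUSP9 had 30 counts in all, 0 in 9 libraries and at most 6 in any. For both genes 3 counts, the upper limit that a count of 0 allows, correspond to between 0.0367 and 0.0851 CPM depending on the library. Neither gene passed the filter on low counts, so 8 of the 10 members were tested.

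Against control, PI103 lowered 4 of the 8 tested members (DUSP1, DUSP6, DUSP8 and DUSP16) and raised none, where 51.4% of all 13947 genes tested were called at an adjusted p under 0.05. PD0325901 lowered 6 and raised 1, with 58.6% of all genes called. Oxozeaenol lowered 7 and raised none, with 51.9% of all genes called. The oxozeaenol combination lowered 5 and raised none, where 55.6% of genes were called. The PD0325901 combination lowered 6 and raised 1, where 64.8% of genes were called. The single member called higher was DUSP10 in both cases, where 28.7% and 32.2% of all genes were called higher. Genes called lower made up 25.2% of all genes with PI103, 29.9% with PD0325901, 26.1% with oxozeaenol, 27.9% with the oxozeaenol combination, and 32.6% with the PD0325901 combination. The median log2 fold change of the 8 members was -0.40, -0.95, -0.72, -0.56 and -1.15 in the same order, beside medians over all genes of 0.02, -0.02, 0.02, 0.02 and 0.01. These 5 comparisons share their control libraries. Testing for a change beyond 1 on the log2 scale, which asks for more than a 2-fold change, called 1, 3, 2, 2 and 4 members, beside 3.36%, 7.87%, 4.59%, 5.29% and 11% of all genes. DUSP1, DUSP6 and DUSP8 were called lower in all 5 treatments, DUSP10 was called in both directions, and DUSP7 was called in none. The shares of all genes meeting these rules across the 5 treatments were not taken, so this only describes the members. RNA was measured in bulk and scaled to the library, so less RNA per cell and fewer cells that express a gene cannot be told apart.

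**Figure D1:**
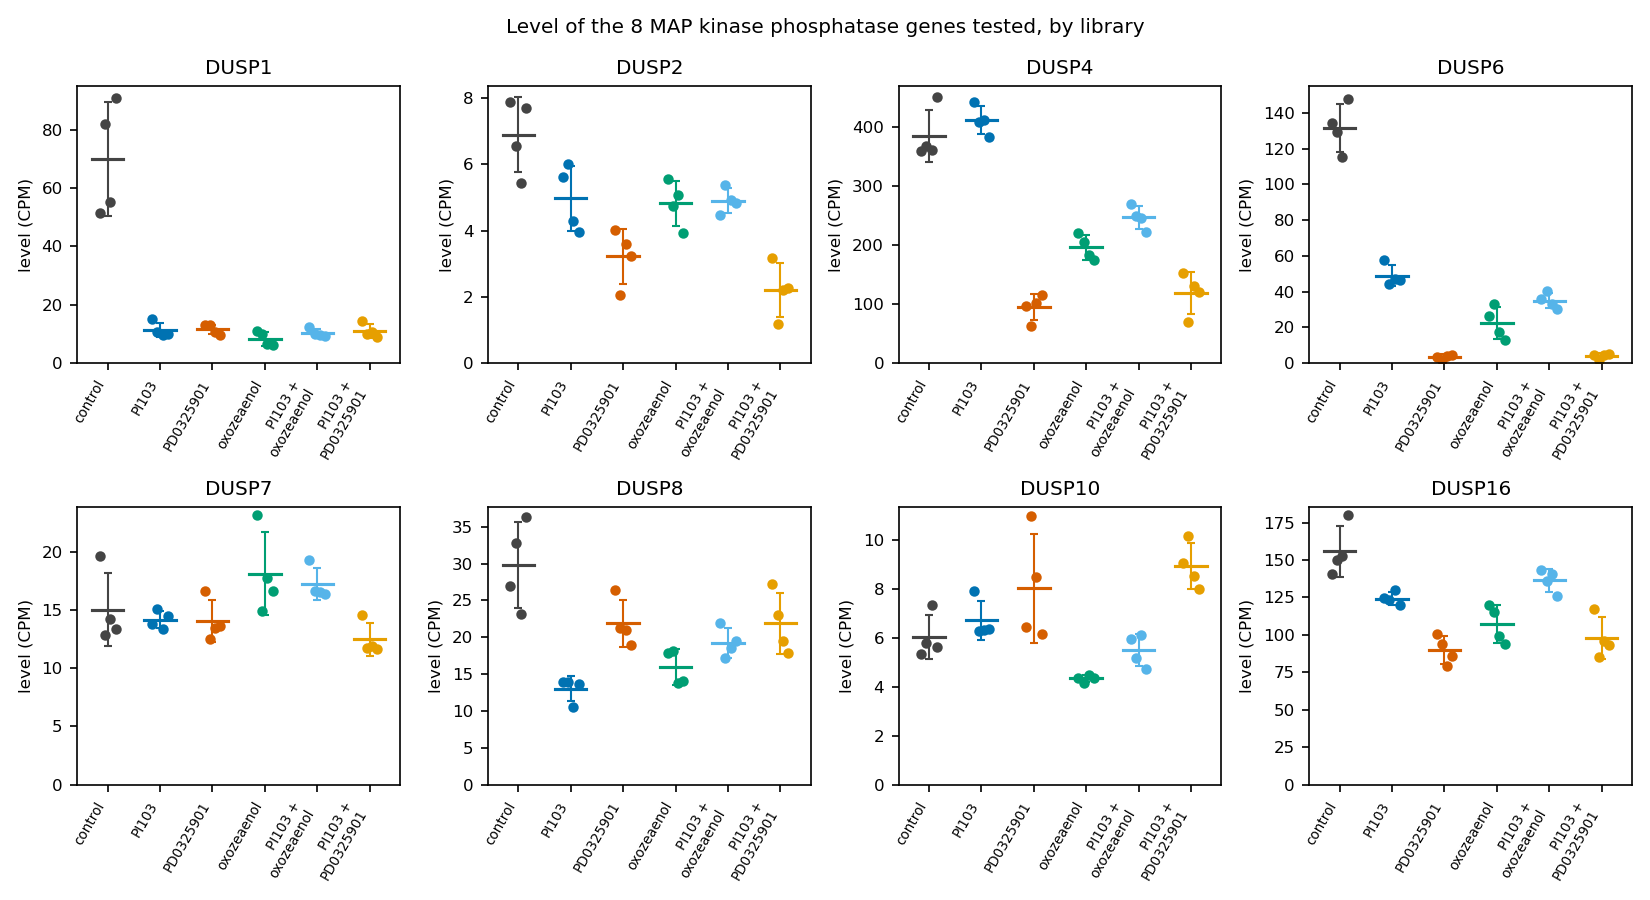
Level of each of the 8 tested members in CPM (vertical axes, linear and starting at 0) in the 4 libraries of each group; points are libraries, horizontal lines group means and bars 1 SD. DUSP1 was at 51.4 CPM or more in control and at 15.1 CPM or less in every treated library, while DUSP6 fell to between 1.63 and 5.01 CPM in the 8 libraries treated with PD0325901.

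**Figure D2:**
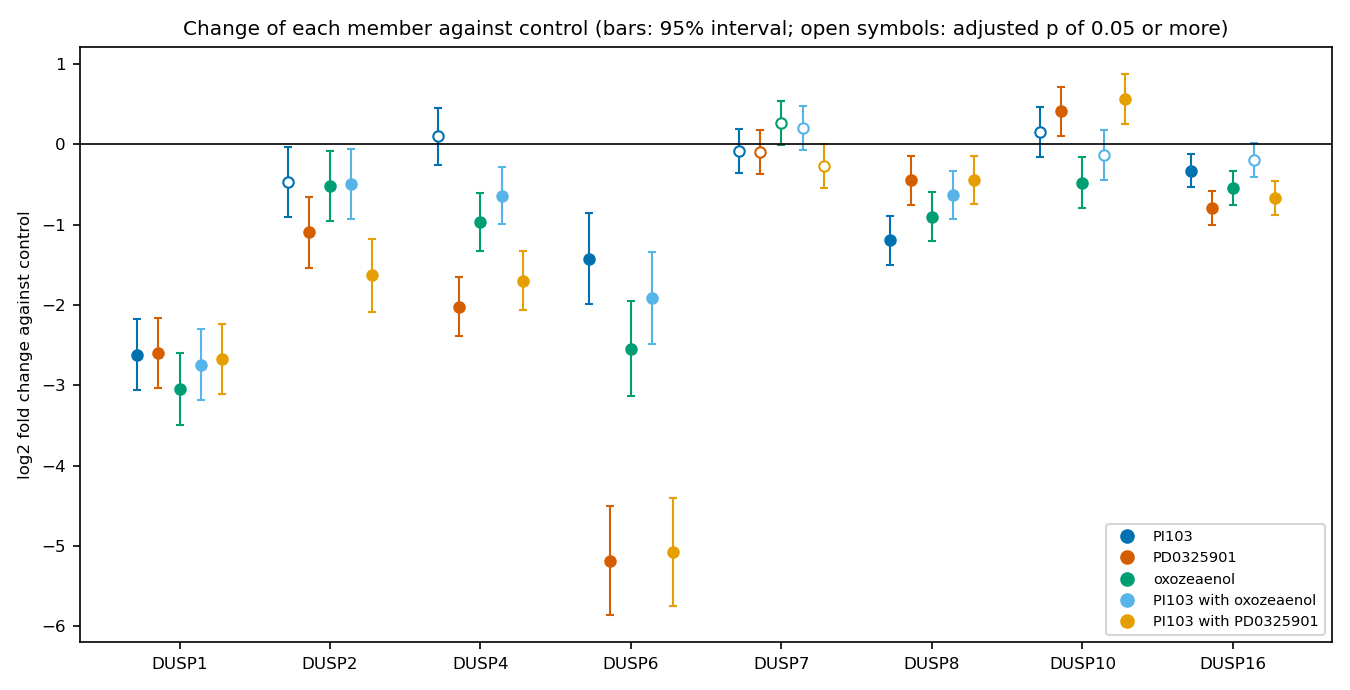
Change of each tested member against control on the log2 scale (vertical axis) under each of the 5 treatments; symbols are fitted log2 fold changes, bars their 95% intervals, and open symbols mark an adjusted p of 0.05 or more. DUSP1 lay between -2.60 and -3.04 under all treatments, whereas DUSP6 ranged from -1.43 with PI103 to -5.18 with PD0325901.

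The promoters of 4 members are shown as the 250 bases before a RefSeq start of each gene (assembly GRCh38.p14, read on the gene's own strand, which is the minus strand for all of these). DUSP10 has 2 such windows, and the one at chr1:221736901-221737150, inside its gene span, is not shown. DUSP1, DUSP6 and DUSP8 are shown because they fell under every treatment, and DUSP10 because it was called both higher and lower. Capitals mark matches to the searched motifs, of which only the CRE, its half-site and the E-box were found. The gene spans given further below, from GENCODE release 29, do not all begin at these RefSeq starts. The DUSP6 window lies wholly inside its gene span, which reaches 89353271, and the DUSP10 window shown lies partly inside, up to 221742176. The DUSP8 window lies beyond its gene span, which reaches 1571920, with a gap between them. Distances and absent motifs therefore hold for the RefSeq starts only.
DUSP1, chr5:172771196-172771445: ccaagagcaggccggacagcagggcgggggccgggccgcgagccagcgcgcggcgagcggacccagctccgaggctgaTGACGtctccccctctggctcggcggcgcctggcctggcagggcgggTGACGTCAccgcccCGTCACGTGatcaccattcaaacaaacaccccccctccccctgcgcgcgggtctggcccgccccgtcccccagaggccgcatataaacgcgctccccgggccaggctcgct
DUSP8, chr11:1572272-1572521: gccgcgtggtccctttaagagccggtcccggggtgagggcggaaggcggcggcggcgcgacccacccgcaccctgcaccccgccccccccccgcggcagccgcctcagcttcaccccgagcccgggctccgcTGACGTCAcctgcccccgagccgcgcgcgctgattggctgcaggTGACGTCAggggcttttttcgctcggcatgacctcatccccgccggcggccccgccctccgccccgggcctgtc
DUSP6, chr12:89352502-89352751: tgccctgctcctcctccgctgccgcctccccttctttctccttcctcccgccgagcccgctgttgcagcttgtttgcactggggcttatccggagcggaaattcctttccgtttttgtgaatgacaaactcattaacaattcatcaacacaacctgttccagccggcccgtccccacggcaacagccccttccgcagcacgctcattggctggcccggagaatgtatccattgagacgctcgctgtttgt
DUSP10, chr1:221742090-221742339: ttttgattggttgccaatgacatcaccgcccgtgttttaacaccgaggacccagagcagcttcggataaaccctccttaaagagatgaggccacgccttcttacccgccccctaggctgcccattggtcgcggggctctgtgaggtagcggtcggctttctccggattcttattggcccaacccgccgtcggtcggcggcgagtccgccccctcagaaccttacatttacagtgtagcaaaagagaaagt
DUSP1 held 1 full cyclic AMP response element (CRE, TGACGTCA) from 125 to 118 bases before the start, 4 CRE half-sites (TGACG) in all and 1 E-box (CACGTG). DUSP8 held 2 full CREs, from 118 to 111 and from 74 to 67 bases before the start, which make up its 4 half-sites. Each full CRE counts as 2 overlapping half-sites, and in DUSP1 the half-site nearest the start shares bases with the E-box.

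Both strands of 10 windows for 8 members were searched, DUSP9 and DUSP10 having 2 windows each. Beside the CRE, its half-site and the E-box, the motifs were AP-1 (TGANTCA), ETS (CCGGAA), FOXO (GTAAACA) and the SRF CArG box. The full CRE was in 1.65% of 35116 windows of the same length in the RefSeq table, the half-site in 21.2% and the E-box in 6.35%. AP-1 was in 6.57% of these windows, ETS in 14.5%, FOXO in 2.98% and the CArG box in 1.16%. DUSP2 held 1 E-box from 113 to 108 bases before its start, and the windows of DUSP6, DUSP7, DUSP9, DUSP10 and DUSP16 held none of the 7 motifs. DUSP4 and DUSP5 had no entry. These matches describe letters in a window and no binding was measured.

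DUSP1, an immediate-early gene for a nuclear phosphatase of p38, JNK and ERK, fell under every treatment, to between 6.12 and 15.1 CPM. It lies at chr5:172768090-172771195 on the minus strand (GRCh38). Its level in control was 51.4, 82.1, 55.1 and 90.8 CPM in replicates 1 to 4. With PI103 it was 15.1, 10.6, 9.60 and 10.2 CPM. With PD0325901 it was 12.9, 12.9, 10.6 and 9.77 CPM. No treated library reached the lowest control library, which also held for the following 3 groups. With oxozeaenol the level was 10.98, 9.91, 6.70 and 6.12 CPM. It was 12.5, 10.1, 9.79 and 9.24 CPM with the oxozeaenol combination, and with the PD0325901 combination it was 14.3, 9.95, 10.5 and 8.93 CPM. The 5 treated groups overlapped one another.

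On the log2 scale DUSP1 fell by 2.62 with PI103 (SE 0.208, adjusted p = 4.33e-10), and it fell by 2.60 with PD0325901 (adjusted p = 2.82e-10). It fell by 3.04 with oxozeaenol (SE 0.214, adjusted p = 6.96e-11). The level with oxozeaenol was 8.24-fold lower than in control. The combinations lay at -2.75 with oxozeaenol (adjusted p = 1.79e-10) and -2.67 with PD0325901 (adjusted p = 1.13e-10). It was lower in 4 of 4 batches under each treatment. PD0325901 and PI103 differed by 0.02 in log2 (95% interval -0.40 to 0.45, adjusted p = 0.942), an interval that leaves room for a difference in either direction. Its sign turned, to at most -0.051, without replicate 1 or 2 of PD0325901 or replicate 2, 3 or 4 of PI103. Oxozeaenol lay -0.42 from PI103 (adjusted p = 0.0984) and -0.44 from PD0325901 (adjusted p = 0.105). With the replicate number as a block these became adjusted p = 0.0476 and 0.0444. Without oxozeaenol replicate 1 they became -0.57 (adjusted p = 0.038) and -0.62 (adjusted p = 0.0358).

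DUSP2, a nuclear phosphatase known mainly from activated lymphocytes, was low and fell in both groups with PD0325901. It lies at chr2:96143166-96145440 on the minus strand (GRCh38). Control libraries held 7.87, 6.56, 5.44 and 7.70 CPM, and PD0325901 libraries 4.01, 2.06, 3.58 and 3.23 CPM. With the PD0325901 combination the level was 3.18, 1.19, 2.20 and 2.26 CPM. Neither PD0325901 group overlapped control, and replicate 2 was the lowest library of both. DUSP2 fell by 1.10 on the log2 scale with PD0325901 (adjusted p = 8.47e-05) and by 1.63 with the PD0325901 combination (adjusted p = 3.51e-07).

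The other 3 treatments gave DUSP2 levels between 3.92 and 6.001 CPM, and these differences from control were near the threshold. With PI103 the log2 difference was -0.47 (adjusted p = 0.0615). It passed with the replicate block (adjusted p = 0.0427), with DESeq2 (adjusted p = 0.0404) and in a fit of the 2 groups alone (adjusted p = 0.0194). Without PI103 replicate 2 or control replicate 3 this difference also passed, at adjusted p = 0.0413 and 0.0312. With oxozeaenol the log2 difference was -0.52 (adjusted p = 0.0412). It did not pass without control replicate 1, 2 or 4 or without oxozeaenol replicate 2, 3 or 4, at adjusted p from 0.0558 to 0.124. With the oxozeaenol combination it was -0.49 (adjusted p = 0.0472), which did not pass without control replicate 1, 2 or 4 or without any of the 4 treated replicates, at adjusted p from 0.0525 to 0.124. Scaling by library totals also ended both of these calls (adjusted p = 0.0537 and 0.0802). These were the 2 least stable calls of a member against control.

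DUSP4, a nuclear phosphatase of ERK and JNK induced by ERK signalling, separated the agents. It lies at chr8:29333064-29350668 on the minus strand (GRCh38). Control libraries held 359, 368, 361 and 451 CPM, and PI103 libraries 443, 409, 413 and 384 CPM. With PD0325901 the level was 97.6, 63.7, 103 and 115 CPM. PI103 overlapped control, while every PD0325901 library was far below both. With oxozeaenol the level was 221, 206, 183 and 174 CPM. It was between 223 and 270 CPM with the oxozeaenol combination, and with the PD0325901 combination between 69.3 and 153 CPM. The order of group means was PI103, control, the oxozeaenol combination, oxozeaenol, the PD0325901 combination and PD0325901, in which the first pair and the last pair overlapped.

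The log2 difference of DUSP4 from control was 0.10 with PI103 (SE 0.170, adjusted p = 0.644, 95% interval -0.26 to 0.46). It fell by 2.02 with PD0325901 (SE 0.176, adjusted p = 9.5e-10), a level 4.05-fold lower. It fell by 0.97 with oxozeaenol (adjusted p = 4.81e-05), by 0.64 with the oxozeaenol combination (adjusted p = 0.00281) and by 1.70 with the PD0325901 combination (adjusted p = 8.76e-09). All single agents differed from one another, PD0325901 lying -2.12 from PI103 (adjusted p = 1.07e-09), oxozeaenol -1.07 from PI103 (adjusted p = 2.32e-05) and oxozeaenol 1.05 above PD0325901 (adjusted p = 0.000107).

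DUSP6, the cytoplasmic ERK phosphatase whose transcript is a standard readout of MEK activity, had the largest fitted change of the 8 tested members in both groups with PD0325901, while DUSP1 had it in the other 3 treatments. It lies at chr12:89347232-89353271 on the minus strand (GRCh38), and 40.5% of its exon length is overlapped by the antisense gene AC024909.2. The sources used here do not say whether counting used strand, so reads of that gene may be included. Control libraries held 134, 130, 115 and 148 CPM. With PI103 the level was 57.7, 44.5, 47.4 and 46.6 CPM, and with oxozeaenol 26.5, 33.4, 17.3 and 12.8 CPM. Neither single agent reached control or the other. With PD0325901 the level was 3.71, 1.72, 4.24 and 4.75 CPM, below every library without that agent. With the oxozeaenol combination it was 36.0, 40.3, 33.1 and 30.4 CPM, and with the PD0325901 combination it was 4.63, 1.63, 4.31 and 5.01 CPM. The 2 groups with PD0325901 overlapped, as did oxozeaenol alone and with PI103.

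On the log2 scale DUSP6 fell by 1.43 with PI103 (SE 0.270, adjusted p = 0.000125), by 2.54 with oxozeaenol (SE 0.282, adjusted p = 1.16e-07) and by 5.18 with PD0325901 (SE 0.324, adjusted p = 8.88e-12), a level 36.4-fold lower. It fell by 1.91 with the oxozeaenol combination (adjusted p = 3.45e-06) and by 5.08 with the PD0325901 combination (adjusted p = 6.65e-12). It was lower in 4 of 4 batches under each treatment. Replicate 2 held the lowest DUSP6, DUSP4 and DUSP2 of both PD0325901 groups. With both of those libraries left out, DUSP6 lay at -4.95 with PD0325901 and -4.83 with the PD0325901 combination, and DUSP4 at -1.87 and -1.51. Among single agents, PD0325901 lay -3.76 from PI103 (adjusted p = 1.46e-09), oxozeaenol -1.12 from PI103 (adjusted p = 0.00205), and oxozeaenol 2.64 above PD0325901 (adjusted p = 1.41e-06).

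DUSP7, the other expressed cytoplasmic ERK phosphatase, was called against control in none of the 5 treatments. It lies at chr3:52048919-52056550 on the minus strand (GRCh38). Group means were 15.03 ± 3.15 CPM in control, 14.2 ± 0.763 with PI103, 14.1 ± 1.81 with PD0325901 and 18.1 ± 3.57 with oxozeaenol (SD, n = 4 each). With the oxozeaenol combination the mean was 17.2 ± 1.38 CPM and with the PD0325901 combination it was 12.5 ± 1.42 CPM (SD, n = 4 each). Every treated group overlapped control, in which replicate 1, at 19.7 CPM, was the highest library. Within batches, DUSP7 was higher than control in 4 of 4 with oxozeaenol and lower in 4 of 4 with the PD0325901 combination. It was higher in 3 of 4 with the oxozeaenol combination, in 2 of 4 with PI103 and in 1 of 4 with PD0325901. The log2 differences from control were -0.08 with PI103 (adjusted p = 0.621), -0.10 with PD0325901 (adjusted p = 0.545) and 0.27 with oxozeaenol (adjusted p = 0.0852). They were 0.20 with the oxozeaenol combination (adjusted p = 0.199) and -0.27 with the PD0325901 combination (adjusted p = 0.0787).

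With the replicate block the last 3 of these DUSP7 differences passed, at adjusted p = 0.0145, 0.0494 and 0.0166. Without control replicate 1, the differences of oxozeaenol and of the oxozeaenol combination passed at 0.43 (adjusted p = 0.00614) and 0.36 (adjusted p = 0.0183), and those with PI103 and with PD0325901 turned to 0.07 and 0.06. Without oxozeaenol replicate 2 the difference with oxozeaenol was 0.36 (adjusted p = 0.0314). Without the PD0325901 combination replicate 1 the difference of that combination was -0.35 (adjusted p = 0.0299), and without control replicate 2 it was -0.34 (adjusted p = 0.0391). Oxozeaenol lay above PI103 by 0.35 (adjusted p = 0.0317) and above PD0325901 by 0.37 (adjusted p = 0.0371). The first of these calls was lost without replicate 1 or 3 of PI103 or of oxozeaenol, at adjusted p from 0.0508 to 0.176, and with library totals (adjusted p = 0.065). The second was lost without PD0325901 replicate 2, 3 or 4 or oxozeaenol replicate 1 or 3, at adjusted p from 0.0621 to 0.254. It was also lost with library totals (adjusted p = 0.0841), with no filter on low counts (adjusted p = 0.0526), in a fit of the 2 groups alone (adjusted p = 0.0939) and without both replicate 2 libraries treated with PD0325901 (adjusted p = 0.107).

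DUSP8, a phosphatase of JNK and p38, fell under every treatment, with the lowest group mean under PI103. It lies at chr11:1554044-1571920 on the minus strand (GRCh38). Control libraries held 27.0, 32.8, 23.1 and 36.3 CPM, and PI103 libraries 13.96, 13.96, 10.5 and 13.7 CPM. With oxozeaenol the level was 17.9, 18.1, 13.8 and 14.01 CPM. Both of these groups lay below all control libraries. With PD0325901 the level was 26.4, 21.3, 20.9 and 18.9 CPM, and with the PD0325901 combination it was 27.2, 23.0, 19.5 and 17.9 CPM. The level was 21.9, 17.1, 18.6 and 19.4 CPM with the oxozeaenol combination. The 2 groups with PD0325901 overlapped control. Within batches, DUSP8 was lower than control in 3 of 4 with the PD0325901 combination, the remaining batch differing by 0.0097 on the log2 scale. Under each of the other treatments it was lower in 4 of 4 batches, and with PD0325901 alone the smallest such difference was -0.030.

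On the log2 scale DUSP8 fell by 1.20 with PI103 (SE 0.147, adjusted p = 2.45e-07), a level 2.29-fold lower. It fell by 0.90 with oxozeaenol (adjusted p = 1.4e-05), by 0.63 with the oxozeaenol combination (adjusted p = 0.000664), by 0.45 with PD0325901 (adjusted p = 0.0101) and by 0.44 with the PD0325901 combination (adjusted p = 0.00931). Without control replicate 4 the calls with PD0325901 and with the PD0325901 combination were lost (-0.34, adjusted p = 0.0567, and -0.34, adjusted p = 0.0527), and the second was also lost with library totals (adjusted p = 0.075). PD0325901 lay above PI103 by 0.75 (adjusted p = 0.000172), while oxozeaenol and PI103 differed by 0.30 (adjusted p = 0.107). Oxozeaenol lay -0.45 from PD0325901 (adjusted p = 0.0226), which was lost without PD0325901 replicate 1 or oxozeaenol replicate 3 or 4, at adjusted p from 0.069 to 0.0762.

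DUSP10, also a phosphatase of p38 and JNK, was the only member called higher in any treatment. It lies at chr1:221701424-221742176 on the minus strand (GRCh38). Control libraries held 5.33, 5.81, 7.34 and 5.64 CPM, and the PD0325901 combination gave 9.06, 10.2, 8.54 and 8.0004 CPM, above all of them. With PD0325901 the level was 6.45, 10.99, 8.50 and 6.17 CPM. With oxozeaenol it was 4.35, 4.18, 4.48 and 4.36 CPM, below every control library. Replicate 2 was the highest PD0325901 library, and that group overlapped control. With PI103 the level was 6.28 to 7.92 CPM and with the oxozeaenol combination 4.73 to 6.12 CPM.

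DUSP10 rose by 0.57 on the log2 scale with the PD0325901 combination (adjusted p = 0.00158), and it was higher in 4 of 4 batches. With PD0325901 alone it was also higher in 4 of 4 batches, and it rose by 0.41 (adjusted p = 0.0195). That call was lost without PD0325901 replicate 2 (0.25, adjusted p = 0.136), without control replicate 1 (0.36, adjusted p = 0.0635), without control replicate 4 (0.38, adjusted p = 0.0524), in a fit of the 2 groups alone (0.44, adjusted p = 0.0546), and without replicate 2 of both groups with PD0325901 (0.22, adjusted p = 0.158). With oxozeaenol it was lower in 4 of 4 batches. The fall was 0.48 (adjusted p = 0.0102), a call that was lost without control replicate 3 (-0.36, adjusted p = 0.0636). The differences with PI103 (0.16, adjusted p = 0.394) and with the oxozeaenol combination (-0.13, adjusted p = 0.46) did not pass. Oxozeaenol lay -0.63 from PI103 (adjusted p = 0.00151) and -0.89 from PD0325901 (adjusted p = 0.000127).

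DUSP16, which acts mainly on JNK and p38, had the highest level per length of DUSP8, DUSP10 and DUSP16 in control, and it fell under 4 of the 5 treatments. It lies at chr12:12474210-12562383 on the minus strand (GRCh38). Group means were 156 ± 16.9 CPM in control, 124 ± 4.17 with PI103, 89.9 ± 9.36 with PD0325901 and 107 ± 12.4 with oxozeaenol (SD, n = 4 each). With the oxozeaenol combination the mean was 136 ± 7.42 CPM and with the PD0325901 combination 97.9 ± 13.7 CPM (SD, n = 4 each). The single agents and the PD0325901 combination did not overlap control, and the oxozeaenol combination did. DUSP16 fell by 0.79 on the log2 scale with PD0325901 (adjusted p = 2.06e-07), by 0.67 with the PD0325901 combination (adjusted p = 1.95e-06), by 0.54 with oxozeaenol (adjusted p = 6.91e-05) and by 0.33 with PI103 (adjusted p = 0.00778). The difference with the oxozeaenol combination was -0.19 (adjusted p = 0.103). PD0325901 lay -0.47 from PI103 (adjusted p = 0.000412).

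Compared directly, the single agents differed from one another in 4 to 6 of the 8 members. PD0325901 differed from PI103 in 5 of 8 members, 1 higher and 4 lower, where 44.5% of all genes were called. Oxozeaenol differed from PI103 in 4 members, 1 higher and 3 lower, where 43.1% were called, and from PD0325901 in 6 members, 4 higher and 2 lower, where 28.5% were called. A change beyond 1 on the log2 scale was called in 2, 0 and 1 members (0 with 6 of 8 at an unadjusted p under 0.05 for any change), beside 4.7%, 2.96% and 0.652% of all genes. DUSP2 with PD0325901 lay -0.63 from PI103 (adjusted p = 0.0186), which was lost without PI103 replicate 1 or 2 or PD0325901 replicate 2, at adjusted p from 0.0558 to 0.0964. DUSP2 with oxozeaenol lay 0.58 above PD0325901 (adjusted p = 0.0434), which was lost without oxozeaenol replicate 1, 2 or 3 or PD0325901 replicate 2 or 4, at adjusted p from 0.0657 to 0.199. It was also lost with library totals (adjusted p = 0.0613), with no filter on low counts (adjusted p = 0.0581), in a fit of the 2 groups alone (adjusted p = 0.0687) and without both replicate 2 libraries treated with PD0325901 (adjusted p = 0.0779). DUSP16 with oxozeaenol differed from PI103 by -0.21 (adjusted p = 0.0866) and from PD0325901 by 0.26 (adjusted p = 0.0555). Without oxozeaenol replicate 3, the members called between oxozeaenol and PD0325901 were 3.

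The make-up of the family, as shares of its summed CPM per kilobase, shifted between treatments. The sum was 158 ± 20.8 CPM per kilobase in control, 105 ± 6.35 with PI103, 46.9 ± 3.21 with PD0325901 and 65.5 ± 9.08 with oxozeaenol (SD, n = 4 each). It was 82.3 ± 5.52 with the oxozeaenol combination and 50.8 ± 9.17 with the PD0325901 combination (SD, n = 4 each), and every treated library was below all control libraries. DUSP4 made up 33.6% of the sum in control, 54.1% with PI103 and 27.8% with PD0325901. The share of DUSP6 was 18.1% in control, 10.1% with PI103, 7.24% with oxozeaenol and 1.65% with PD0325901. DUSP16 made up 17.3% in control and 33.5% with PD0325901, although its own level fell there. The ratio of DUSP6 to DUSP4 per kilobase was 0.538 ± 0.0386 in control, 0.186 ± 0.0144 with PI103, 0.176 ± 0.0596 with oxozeaenol and 0.0577 ± 0.0106 with PD0325901 (SD, n = 4 each). It was lower than in every control library in all treated libraries.

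**Figure D3:**
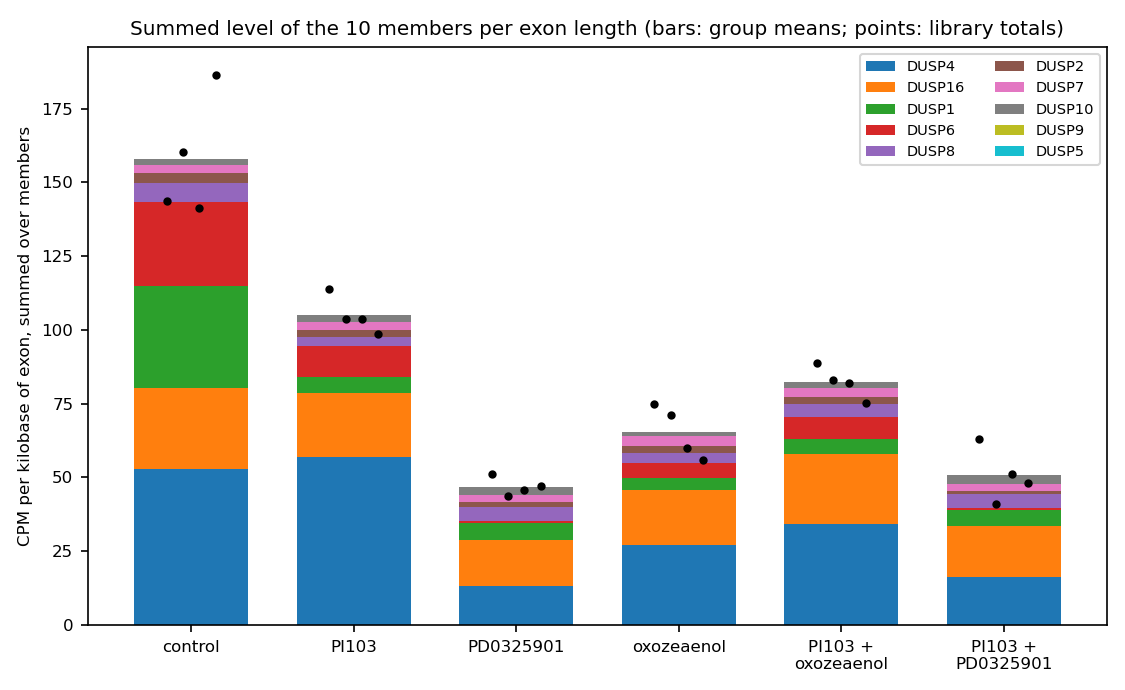
Summed level of the 10 members in CPM per kilobase of exon (vertical axis, starting at 0) in the 6 groups; stacked colours are group means of single members and points are the totals of single libraries. The total was 158 in control and 46.9 with PD0325901, and the DUSP6 and DUSP1 layers shrank in every treatment.

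Each combination was compared with its single agents, which were given at full concentration, so agent and dose cannot be told apart in these differences. The PD0325901 combination differed from PI103 in 6 of 8 members (38.7% of all genes called), 2 higher and 4 lower. DUSP6 lay -3.65 from PI103 (adjusted p = 4.43e-09), DUSP4 -1.80 (adjusted p = 2.41e-08), DUSP2 -1.16 (adjusted p = 0.000155) and DUSP16 -0.34 (adjusted p = 0.00771). DUSP8 lay 0.75 above PI103 (adjusted p = 0.000253). DUSP10 lay 0.41 above it (adjusted p = 0.0295), which was lost without replicate 1 or 2 of the combination and without PI103 replicate 2, 3 or 4, at adjusted p from 0.0538 to 0.106. A change beyond 1 on the log2 scale was called in 2 members, beside 2.72% of all genes.

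Against PD0325901 alone the same combination differed in 0 of 8 members with edgeR (18.1% of all genes called), 1 at an unadjusted p under 0.05 and 1 with DESeq2, namely DUSP2 (-0.54, adjusted p = 0.0498). DUSP6 differed by 0.11 (95% interval -0.53 to 0.75, adjusted p = 0.838), and by -0.14 without PD0325901 replicate 2 and -0.024 without replicate 4 of the combination. DUSP4 differed by 0.32 (adjusted p = 0.199), which became 0.51 (adjusted p = 0.0104) without replicate 2 of the combination and 0.36 (adjusted p = 0.0218) without replicate 2 of both groups. DUSP2 differed by -0.53 (adjusted p = 0.0891), which became -0.78 (adjusted p = 0.0264) without replicate 1 of the combination and -0.72 (adjusted p = 0.0155) without PD0325901 replicate 2.

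The oxozeaenol combination differed from PI103 in 2 of 8 members (18.3% of all genes called). DUSP4 lay -0.74 from PI103 (adjusted p = 0.00324) and DUSP8 0.57 above it (adjusted p = 0.0075). DUSP6 differed by -0.49 (adjusted p = 0.224), and a fit of the 2 groups alone gave adjusted p = 0.00102. Against oxozeaenol, 1 of 8 members differed (14.9% of all genes called), namely DUSP16 by 0.35 (adjusted p = 0.0191). That call was lost without replicate 1 or 3 of the combination and without oxozeaenol replicate 3 or 4, at adjusted p from 0.056 to 0.0791. DUSP6 differed from oxozeaenol by 0.63 (adjusted p = 0.118), or 0.89 (adjusted p = 0.0379) without oxozeaenol replicate 2. No member was called for a change beyond 1 on the log2 scale against PI103 (0.774% of all genes) or against oxozeaenol (0.0932%).

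Suppose that effects on the log2 scale are linear in concentration and that the agents add without interaction. A combination of agents at 50% each would then lie at the midpoint (mean) of its 2 single agents. A departure does not tell which of these conditions failed. The PD0325901 combination departed from the midpoint in 4 of 8 members (22% of all genes called). DUSP6 lay -1.77 from the mean (adjusted p = 9.04e-05), DUSP2 -0.85 (adjusted p = 0.00299) and DUSP4 -0.74 (adjusted p = 0.0014), so these 3 lay nearer to PD0325901 alone than to the midpoint. By fitted value DUSP6 and DUSP4 lay between the midpoint and PD0325901 alone. DUSP2 lay beyond PD0325901 alone, at -0.53 from it, which was not called (adjusted p = 0.0891). By fitted value DUSP8 also lay nearer to PD0325901 alone than to the midpoint. It differed from PD0325901 alone by 0.0037, which was not called (adjusted p = 0.989). DUSP8 lay 0.38 above the mean (adjusted p = 0.0305). That call was lost without replicate 1 or 2 of the combination, PI103 replicate 3 or PD0325901 replicate 3 or 4, at adjusted p from 0.0529 to 0.168, and without both replicate 2 libraries treated with PD0325901 (adjusted p = 0.0984). No member departed by more than 1 on the log2 scale in the test of that change (0.208% of all genes called).

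The oxozeaenol combination departed from the mean in 0 of 8 members with edgeR (3.98% of all genes called, which is 555 genes and becomes 997 with the replicate block), 2 at an unadjusted p under 0.05 and 1 with DESeq2. DUSP8 lay 0.42 above it (adjusted p = 0.0588), which passed with the replicate block (adjusted p = 0.013), with DESeq2 (adjusted p = 0.0277), in a fit of the compared groups alone (adjusted p = 0.0137) and without oxozeaenol replicate 1 (0.45, adjusted p = 0.0475). DUSP16 lay 0.24 above it (adjusted p = 0.125), which passed in the fit of the compared groups alone (adjusted p = 0.0445).

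**Figure D4:**
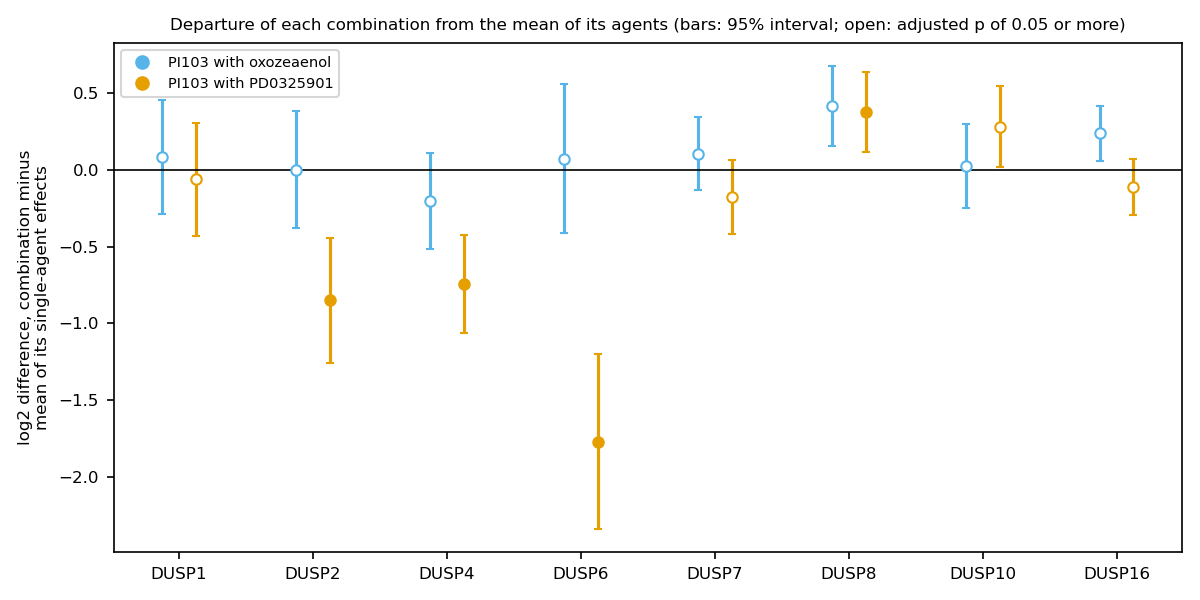
Departure of each combination from the mean of its single-agent effects on the log2 scale (vertical axis) for the 8 tested members; symbols are fitted differences, bars their 95% intervals, and open symbols mark an adjusted p of 0.05 or more. DUSP6 at -1.77, DUSP2 at -0.85 and DUSP4 at -0.74 lay below 0 for the PD0325901 combination.

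For the other genes of the pathway, counts are to be read against the shares of all genes called, from 51.4% with PI103 alone to 64.8% with the PD0325901 combination. Of 10 MAP kinase genes 8 were tested, and with PD0325901 3 rose and 1 fell, as with oxozeaenol, so that 4 of 8 were called beside 58.6% and 51.9% of all genes. With PI103, and likewise with the oxozeaenol combination, 4 rose and 2 fell, and with the PD0325901 combination 3 rose and 3 fell. MAPK3, which encodes an ERK kinase, rose under every treatment, by 0.95 to 1.16 on the log2 scale, from 40.4 ± 2.10 CPM in control to 90.6 ± 12.3 CPM with PD0325901 (SD, n = 4 each; adjusted p = 1.64e-10). MAPK9, which encodes a JNK kinase, fell by 0.38 with PD0325901 (adjusted p = 3.56e-05). Of 11 MAP kinase kinases and TAK1 complex genes, 2 rose and 2 fell with PD0325901, and with oxozeaenol 1 rose and 4 fell. With PI103 1 fell, with the oxozeaenol combination 3 fell, and with the PD0325901 combination 1 rose and 2 fell. MAP2K6, an activator of p38, rose by 1.59 with PD0325901 (adjusted p = 5.41e-06) and by 1.24 with oxozeaenol (adjusted p = 0.000202). Its level was low, with means of 1.18 CPM in control, 3.57 with PD0325901 and 2.79 with oxozeaenol. It was not called with PI103 (adjusted p = 0.857), the oxozeaenol combination (adjusted p = 0.828) or the PD0325901 combination (adjusted p = 0.0743). TAB2, a TAK1 adaptor, fell under every treatment, by 0.40 to 0.67 on the log2 scale. The fall was 0.52 with PD0325901 (adjusted p = 4.17e-05) and 0.65 with oxozeaenol (adjusted p = 3.11e-06).

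Of 16 atypical dual-specificity phosphatases, which lack the MAP kinase binding domain, 10 were tested, and 4 rose and 4 fell with PD0325901. In the other treatments 1 to 3 rose and 4 or 5 fell. DUSP12 fell by 0.81 (adjusted p = 1.99e-07) and DUSP14 by 0.60 (adjusted p = 3.54e-06) with this agent. Of 8 other phosphatases of MAP kinases 6 were tested, of which 4 fell and none rose with PD0325901 alone or in combination. With PI103 1 rose and 2 fell, with oxozeaenol 2 fell, and with the oxozeaenol combination 3 fell. Among them PPM1D, a p53-induced phosphatase, fell by 0.47 with PD0325901 (adjusted p = 0.000436) and PPP2CB, a catalytic subunit of PP2A, by 0.42 with the same agent (adjusted p = 0.000527). The median log2 fold change with PD0325901 was -0.23 for the atypical phosphatases and -0.33 for the other phosphatases, beside -0.95 for the members.

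All 16 other ERK feedback and output genes were tested. With PD0325901 14 fell and none rose, with a median of -3.19, and with PI103 2 rose and 8 fell, with a median of -1.15. With oxozeaenol 13 fell and none rose, with the oxozeaenol combination 1 rose and 11 fell, and with the PD0325901 combination 1 rose and 13 fell. IER3 fell by 4.48 with PD0325901 (adjusted p = 2.68e-13) and PHLDA1 by 2.94 (adjusted p = 1.01e-13). Of 13 genes induced through p38, JNK or stress kinases 12 were tested, and 9 fell and none rose under each treatment, with medians from -0.65 with PI103 to -1.73 with oxozeaenol. GADD45A fell by 1.92 with PD0325901 (adjusted p = 4.14e-12) and by 2.45 with PI103 (adjusted p = 2.96e-13), and GADD45B by 1.88 (adjusted p = 6.02e-12) and by 0.37 (adjusted p = 0.0143). The lists were chosen with earlier results of these data known, and their counts describe them.

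The genes whose pattern was most like a member were found by the root mean square difference of centred log2 CPM over the 24 libraries, among 10033 genes with a mean of at least 5 CPM. For DUSP6 these were TNS4 (0.426), SPRY4 (0.487) and UBASH3B (0.495), beside a median of 1.96 over all candidates. These genes were picked for likeness over the same libraries, so their log2 differences from control are a description. SPRY4, a Sprouty inhibitor of receptor signalling, lay at -4.10 with PD0325901 and -1.28 with PI103. TNS4 and UBASH3B lay at -4.49 and -4.03 with PD0325901, and at -0.48 and -0.36 with PI103. For DUSP1 the nearest was ATF3 (0.251, median 1.07), a stress-induced transcription factor that lay between -2.32 and -2.69 under all treatments. For DUSP4 it was TGFBR2 (0.240, median 0.851), a TGF-beta receptor, which lay at -1.94 with PD0325901 and 0.57 with PI103. The nearest genes were RNF4 for DUSP7 (0.115, median 0.348), TOR1AIP2 for DUSP10 (0.147, median 0.470) and SIM2 for DUSP16 (0.113, median 0.371).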

How the data were processed

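The authors deposited raw read counts, as whole numbers, for each gene symbol. Libraries were stranded mRNA libraries, per the labels. The build is GRCh38 per the submitters' processing notes; the aligner, counter, annotation and strand setting are not given in the sources used here. Reads not assigned to a gene were left out, of which 4.24% to 8.57% per library had no feature, 1.57% to 2.01% were ambiguous and 4.64% to 6.06% were not uniquely aligned. Sample titles gave the groups, since compound names in the treatment field count upward in later replicates.

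Genes were filtered with filterByExpr (13947 of 23368 kept), scaled by TMM and fitted in edgeR 4.0.16 (R 4.3.3) with robust quasi-likelihood, 1 coefficient per group over all 24 libraries. The biological coefficient of variation common to all genes was 0.131. In 14 contrasts, two-sided tests were made with Benjamini-Hochberg adjustment over all genes tested and a call needed an adjusted p under 0.05. Adjusted p-values are from edgeR's quasi-likelihood test except where another tool is given, and 95% intervals use 18 residual degrees of freedom. The test does not use that fixed number, so interval and test can differ near the threshold. For DUSP7 with oxozeaenol against control the interval was -0.004 to 0.546, at an unadjusted p of 0.0484 in the quasi-likelihood test. CPM use TMM-scaled library sizes, and log2 CPM for likeness a prior count of 2. Positions and exon lengths are from GENCODE release 29, and promoters from RefSeq, which held windows for 8 of 10 members.

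Members and lists were chosen with earlier results of these data known. Named genes were all members, the 2 genes of each other list with the smallest adjusted p for PD0325901 against control, and the nearest genes by likeness (3 for DUSP6, 1 for others); those of 2 members are not reported here. The labels give the replicate number as batch. Over 60 same-numbered pairs of libraries, the correlation of deviations from group means averaged 0.12 and was positive in 47, against -0.04 over 180 pairs with different numbers. The batch label pairs the libraries, but the reported fit has no term for it. The fit with the replicate block was an alternative, and its value is given where it changed a call among the member results followed. Alternatives were DESeq2 1.42.0, RLE factors, library totals, no filter, the replicate block, fits of the compared groups alone, a minimum log2 change of 1, and each library left out. Leaving out replicate 2 of both PD0325901 groups was chosen after seeing the data.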

Additional observations from a re-analysis of the deposited data

Results flagged for a closer look

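In 5 of 48 groups of 4 libraries, 1 library stood apart from the other 3 by Dixon's criterion at the 95% level, which chance gives in about 1 in 20 groups. DUSP4 in control replicate 4 was 451 CPM, where the next library held 368. DUSP7 in replicate 1 of the oxozeaenol combination was 19.3 CPM, against 16.7 in the next, and in replicate 1 of the PD0325901 combination it was 14.6 CPM, against 11.9. DUSP8 in PI103 replicate 3 was 10.5 CPM, where the next lowest held 13.7. DUSP10 in PI103 replicate 1 was 7.92 CPM, against 6.36 in the next.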

How the results depend on the processing

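Single members were followed under alternatives for all differences from control, all other called differences and some uncalled ones. Of these 1158 values, 1051 kept their direction and their side of the threshold, 68 lost the call, 29 gained one and 10 changed sign. With 1 library left out, sign changes were seen for DUSP7 with PI103 (-0.15 to 0.074) and with PD0325901 (-0.17 to 0.059) against control, each without control replicate 1. They were also seen for DUSP1 in PD0325901 against PI103 (-0.051 to 0.19), and for DUSP6 in the PD0325901 combination against PD0325901 (-0.14 to 0.36). DUSP1 in PD0325901 against PI103 was -0.038 without both replicate 2 libraries treated with PD0325901. None of these was called with all libraries in edgeR, and the cause was not tested.

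With a minimum log2 change of 1, the counts of members called against control were 1 (PI103), 3 (PD0325901), 2 (oxozeaenol), 2 with the oxozeaenol combination, and 4 with the PD0325901 combination. By the same rule they were 2 for PD0325901 against PI103, 0 for oxozeaenol against PI103, 1 for oxozeaenol against PD0325901, 2 for the PD0325901 combination against PI103, and 0 for the oxozeaenol combination against PI103, against oxozeaenol, and for the PD0325901 combination against the mean. The rule asks for a larger change by its construction. Fits of the compared groups alone gave 4 for the oxozeaenol combination against PI103, 2 against oxozeaenol and 2 against the mean. Against the mean, the replicate block and DESeq2 each gave 1. For the PD0325901 combination against PD0325901, DESeq2 and the fit without both replicate 2 libraries each gave 1. The cause was not tested for these.

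With 1 library left out, the members called ranged from 4 to 5 with PI103, 5 to 7 with PD0325901, 6 to 7 with oxozeaenol, 4 to 5 with the oxozeaenol combination and 6 to 8 with the PD0325901 combination, all against control. They ranged from 4 to 5 for PD0325901 against PI103, 3 to 5 for oxozeaenol against PI103, and 3 to 6 for oxozeaenol against PD0325901, the 3 being without oxozeaenol replicate 3. The range was 2 to 2 for the oxozeaenol combination against PI103, 0 to 2 against oxozeaenol and 0 to 1 against the mean, and 5 to 6 for the PD0325901 combination against PI103, 0 to 1 against PD0325901 and 3 to 5 against the mean.

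Of 78 member results followed under alternatives, the replicate block gained a call in 7, given beside them in the report, and lost none. The remaining uncalled differences between treated groups were not followed singly. Among these were DUSP16 with oxozeaenol against PI103 and against PD0325901. Over all genes, fits of the compared groups alone called 2348 in place of 3976 genes for oxozeaenol against PD0325901, 4088 in place of 2553 for the oxozeaenol combination against PI103, 887 in place of 555 for it against the mean, and 1222 in place of 2521 for the PD0325901 combination against PD0325901. Scaling by library totals moved the median of all genes by up to 0.13 in log2 (the PD0325901 combination against control). DUSP5 and DUSP9 were too shallow to test, and a count of 0 there does not show absence.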
